A study of Mus musculus with 2 samples.

Results

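The genes described here are 45 genes of the mouse response to unfolded protein and to amino acid shortage. They were taken by name from the deposited gene table as the listed genes of endoplasmic reticulum (ER) stress, the targets of the transcription factor ATF4 and the cytosolic aminoacyl-tRNA synthetases. All 45 were found, among 34745 genes in all. Monocytic myeloid-derived suppressor cells (M-MDSCs) are immature myeloid cells that restrain T cells. Here, C57BL/6 bone marrow cells were induced in vitro for 7 days with the growth factor GM-CSF alone (CHBP- M-MDSC) or with GM-CSF and CHBP (CHBP+ M-MDSC), and then sorted by flow cytometry. CHBP, cyclic helix B peptide, is a peptide made after a helix of erythropoietin that does not stimulate red cell formation. The labels name the strain of the CHBP+ library as C57BL/7, and the study's methods give C57BL/6, so any difference of strain and the treatment cannot be told apart. The labels give no dose of CHBP, and the number of mice behind each library is not given in the sources used here. GM-CSF was in both cultures, so the comparison is of CHBP added to GM-CSF and not of cells without a growth factor.

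When unfolded protein builds up in the ER, 3 sensors in its membrane, IRE1 (gene Ern1), ATF6 and PERK (gene Eif2ak3), start the unfolded protein response (UPR). IRE1 splices Xbp1 mRNA into the form that encodes an active transcription factor, ATF6 is cut to release one, and both raise chaperones and the machinery of ER-associated degradation. PERK phosphorylates the translation factor eIF2α, as does the kinase GCN2 when amino acids run short, and this integrated stress response slows protein synthesis but raises the translation of ATF4. ATF4 then switches on amino acid synthesis, amino acid import, aminoacyl-tRNA synthetases, and a set of stress genes that includes CHOP (gene Ddit3). ER stress and amino acid supply are studied in MDSCs because these cells live in nutrient-poor tumours and deplete arginine. Splicing of Xbp1, cleavage of ATF6 and phosphorylation of eIF2α are not read by gene counts.

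Each condition was sequenced as 1 library, so nothing here has a replicate, and no test between the conditions was possible. The libraries held 16484504 counted reads (CHBP-) and 16280466 (CHBP+), on 16828 and 17010 genes. Every member was well read, with between 132 and 29627 reads in a library, and all 45 passed the minimum of 1 FPKM (fragments per kilobase of gene per 1000000 counted reads) in at least 1 library, as did 10948 genes in all. The main value, called the log2 ratio, compares FPKM between the libraries as log2 of (CHBP+ plus 1)/(CHBP- plus 1), so a value below 0 is a lower level in CHBP+. The added 1 shrinks the ratio of weakly expressed genes. A gene was counted as changed in size at 1.5-fold. The reads of the libraries were also compared gene by gene with a two-sided exact binomial test (Benjamini-Hochberg adjustment over 14162 genes, adjusted p of at most 0.05). It compares the 2 libraries, not the conditions, and covers counting error only, as do the 95% Clopper-Pearson intervals, since reads without molecular identifiers are not independent molecules. Coordinates are given as deposited, and for 45 of 45 members they overlapped the RefSeq gene on GRCm38.p6.

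Most but not all monocytic markers of the label were well read in the sorted cells. The 8 genes of the monocyte list, with both overlapping entries of Itgam counted, summed to 252322 reads in CHBP- and 221856 in CHBP+, most of them from Lyz2. Lyz2, the macrophage lysozyme, stood at 9756 FPKM in CHBP- and 7830 in CHBP+, and Itgam, which encodes CD11b, at 157 and 232 on the first of its 2 overlapping entries. Csf1r, the receptor of the monocyte growth factor, was at 113 and 126 FPKM, and Cd14 at 206 and 179. The chemokine receptors were low, Ccr2 at 3.29 and 3.84 FPKM and Cx3cr1 at 0.441 and 0.437, under the minimum used below. Ly6c2 and Ly6c1, which encode the Ly6C of the gate, were at 56.9 and 34.0 and at 3.70 and 2.91 FPKM, and Ly6g, which the gate leaves out, at 2.19 and 2.12 FPKM (46 and 44 reads). Over whole marker lists, the 8 erythroid genes summed to 30740 and 12826 reads, the 8 neutrophil genes to 29332 and 21369, the 8 plasma and B cell genes found to 4723 and 3707, the 8 T cell genes to 1994 and 1634, the 8 mast cell and basophil genes to 8843 and 7852, and the 8 dendritic cell genes to 10571 and 13326. Among these, Tnfrsf17, a defining plasma cell gene, and Xcr1, of a dendritic cell subset, had 0 reads in both libraries, which allows up to 0.182 and 0.184 CPM (counts scaled to 1000000 reads). Other genes of both lists were read, so this does not show that those cells were absent. Ighm had 3027 and 2380 reads, and Cd79a 444 and 248. Itgax gave most of the dendritic cell reads, 9336 and 12253. Of the other dendritic cell genes, Ccr7 had 574 and 423 reads and Zbtb46 49 and 93. The part of these lists in the values below was not tested, and in bulk RNA fewer cells of a type and less RNA per cell cannot be told apart.

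As a whole, the members were slightly lower in CHBP+ M-MDSCs and none of them reached 1.5-fold. Their summed reads were 190435 in CHBP- and 175386 in CHBP+, 1.16% and 1.08% of the libraries, a fold of 0.933 in CPM (95% interval 0.926 to 0.939). Of the 45, 13 had a log2 ratio above 0 and 32 below 0, which is 71.1% below 0, against 53.7% of the 10948 genes kept. The median log2 ratio was -0.16, against -0.03 over all genes kept, and the members ranged from -0.54 (Manf) to 0.46 (Ern1). At 1.5-fold, 0 members were higher and 0 lower, where 3.42% and 2.89% of the genes kept were. The log2 ratios of the members also lay closer together than those of all genes kept, with an SD across genes of 0.23 against 0.34. The genes kept include some with fewer reads than any member, and the SD was not compared at matched depth.

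By the exact binomial test of reads, 8 members were higher in CHBP+ and 28 lower, and 9 did not pass. Over all genes tested, 21.9% were higher and 22.2% lower, and among the 9328 genes with at least as many reads in both libraries as the least read member, 28.5% were higher and 29.3% lower. The 8 higher members were Ern1, Atf6, Eif2ak3, Eprs, Iars, Hyou1, Canx and Edem1. The 9 that did not pass were Chac1, Aldh18a1, Pycr1, Aars, Lars, Mars, Tars, Wars and Pdia4. Thus 28 of 45 members lower stood above the share of all genes, and 8 of 45 higher stood below it, both as descriptions of these 2 libraries.

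**Figure D1:**
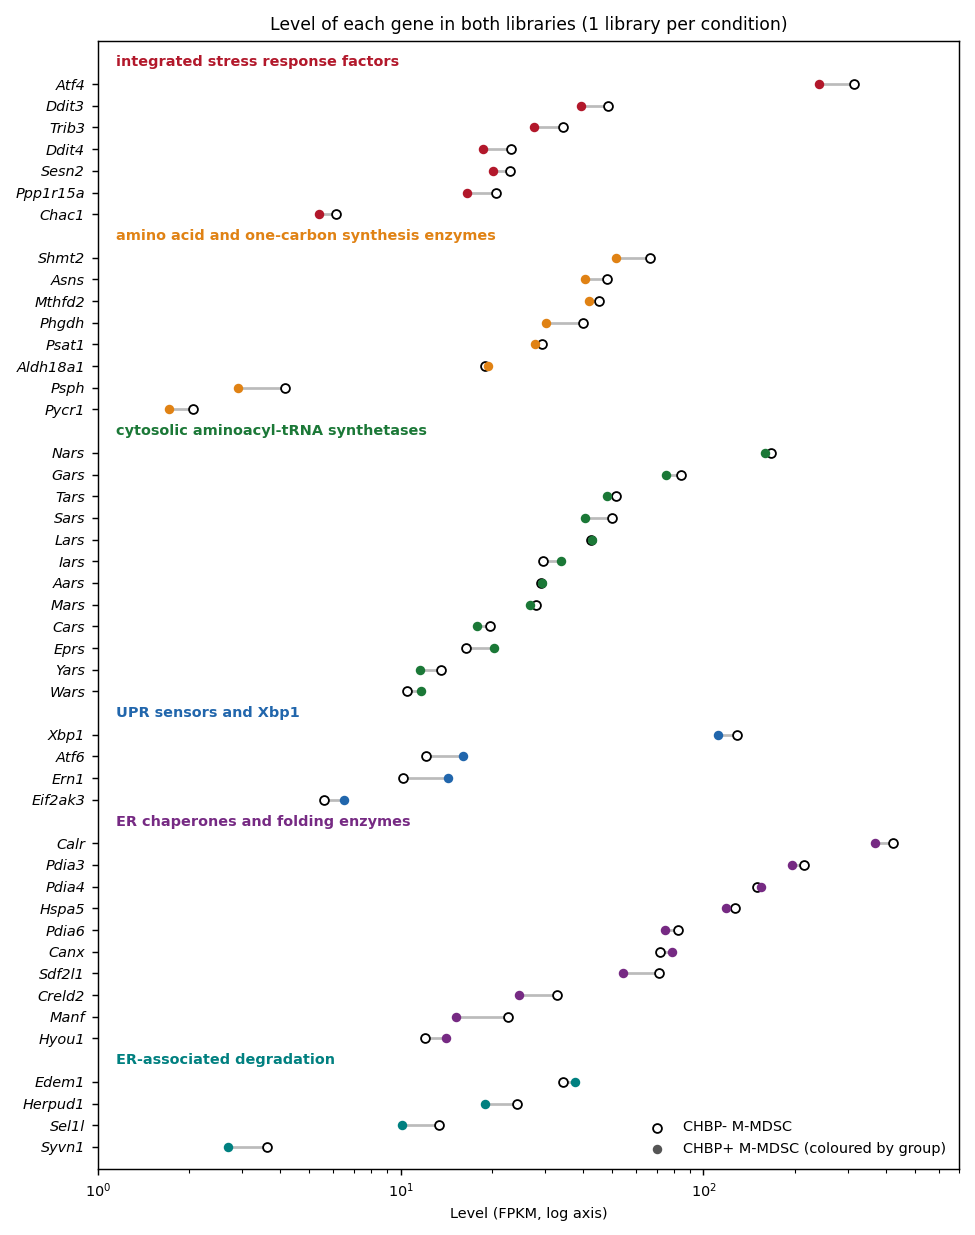
FPKM of each of the 45 members in CHBP- M-MDSC (open points) and CHBP+ M-MDSC (filled points) on a log axis, grouped by role. Levels ran from 1.72 FPKM (Pycr1) to 423 FPKM (Calr), and in every gene the points of the 2 libraries lie close together next to the differences between genes.

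The 3 sensor genes were higher in CHBP+ M-MDSCs, while Xbp1, on whose mRNA the first of them acts, was lower. Ern1 (chromosome 11, 106394650 to 106487852), which encodes IRE1, had 1781 reads in CHBP- and 2480 in CHBP+, or 10.2 and 14.3 FPKM. Its log2 ratio was 0.46 (0.38 to 0.54), the highest of all members. Atf6 (chromosome 1, 170704674 to 170867771) had 1860 and 2438 reads, or 12.1 and 16.0 FPKM, a log2 ratio of 0.38 (0.30 to 0.46). Eif2ak3 (chromosome 6, 70844515 to 70905245), which encodes PERK, was the least abundant of them, with 729 and 838 reads, or 5.57 and 6.48 FPKM, and a log2 ratio of 0.19 (0.06 to 0.31). All 3 exceeded counting error by the exact binomial test, with adjusted p = 1.76e-27 for Ern1, 3.93e-19 for Atf6 and 0.00826 for Eif2ak3. Xbp1 (chromosome 11, 5520659 to 5525893) had 9562 reads in CHBP- and 8187 in CHBP+, or 129 and 112 FPKM. Its log2 ratio was -0.20 (-0.25 to -0.16), in the opposite direction to the sensors, with adjusted p = 3.45e-20 by the same exact test. Summed over the 4 genes the reads were nearly equal, 13932 and 13943, since the fewer Xbp1 reads in CHBP+ were offset by more reads of the sensors. The sensor genes have some of the longest transcripts among the members, with 6946 bases for Ern1, 7463 for Atf6 and 4513 for Eif2ak3, against 2129 for Xbp1, and the log2 ratio followed transcript length in these libraries, as described further on.

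Of the 7 stress response factors downstream of eIF2α, 6 were lower in CHBP+ M-MDSCs, and this role group had the lowest summed fold of the 6 groups. All 7 had a log2 ratio below 0, with a median of -0.30, and 6 were lower by the exact binomial test, none higher. With the trend with transcript length removed, as described further on, the median was -0.17 and 5 of 7 were below 0, Ddit3 (0.02) and Chac1 (0.04) being above it. Their summed reads were 16560 in CHBP- and 12952 in CHBP+, a CPM fold of 0.792 (0.774 to 0.810). Atf4 (chromosome 15, 80255184 to 80257540), the central transcription factor, had 8917 and 6759 reads, or 314 and 241 FPKM, and gave more than 1 in every 2 reads of the group in either library. Its log2 ratio was -0.38 (-0.43 to -0.33), with adjusted p = 2.52e-59 by the exact test. Ddit3, which encodes CHOP, a factor that promotes cell death under long stress, had 1842 and 1475 reads, or 48.6 and 39.4 FPKM, a log2 ratio of -0.30 (-0.39 to -0.20). Trib3, a pseudokinase induced by ATF4 and CHOP, had 1798 and 1427 reads, or 34.4 and 27.7 FPKM, a log2 ratio of -0.31 (-0.40 to -0.21). Ppp1r15a, which encodes GADD34, the phosphatase subunit that reverses the phosphorylation of eIF2α, had 1879 and 1490 reads, or 20.6 and 16.5 FPKM, a log2 ratio of -0.30 (-0.39 to -0.21). These 3 genes thus shared nearly the same ratio, and their intervals overlapped that of Atf4.

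The remaining stress response factors were less abundant. Ddit4, which encodes REDD1, an inhibitor of the growth kinase mTORC1, had 645 and 515 reads, or 23.2 and 18.8 FPKM, and a log2 ratio of -0.29. Sesn2, which encodes Sestrin 2, a leucine sensor that also restrains mTORC1, had 1314 and 1143 reads, or 22.9 and 20.2 FPKM, and a log2 ratio of -0.18. Chac1, which encodes an enzyme that degrades glutathione, had 165 and 143 reads, or 6.11 and 5.37 FPKM. Its log2 ratio of -0.16 had an interval from -0.44 to 0.12, so that a difference was not detectable at this depth.

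Among the enzymes that make amino acids and one-carbon units, 7 of 8 had a log2 ratio below 0, with a median of -0.20. Of these, 6 were lower by the exact binomial test and none was higher. The summed reads were 16761 and 14503, a CPM fold of 0.876 (0.857 to 0.896). In the serine pathway, Phgdh, which encodes its first enzyme, had 1885 reads in CHBP- and 1405 in CHBP+, or 39.9 and 30.1 FPKM. Psat1, of the second step, had 3367 and 3140 reads and a log2 ratio of only -0.08 (adjusted p = 0.0482 by the exact test). Psph, of the last step, had 441 and 303 reads, or 4.16 and 2.90 FPKM, and the lowest log2 ratio of the group, -0.41 (-0.57 to -0.24). The reads of Psph are uncertain because it overlaps Cct6a in the annotation. Shmt2, the mitochondrial enzyme that splits serine into glycine and a one-carbon unit, had 2529 and 1933 reads and a log2 ratio of -0.36, whereas Mthfd2, which carries the one-carbon unit onward in the mitochondrion and overlaps RP24-317F6.7, had 3697 and 3380 reads and a log2 ratio of -0.11. Asns, which encodes asparagine synthetase, had 2965 and 2473 reads, or 48.0 and 40.5 FPKM, and a log2 ratio of -0.24. In proline synthesis, Aldh18a1, of the first step, had 1717 and 1737 reads and the highest log2 ratio of the group, 0.03 (-0.06 to 0.13). Pycr1, of the last step, had 160 and 132 reads and a log2 ratio of -0.17, and neither gene passed the exact test (adjusted p = 0.618 and 0.220).

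The 12 cytosolic aminoacyl-tRNA synthetases, which charge transfer RNAs with their amino acids, did not move together. Their summed reads were 44560 in CHBP- and 43456 in CHBP+, a CPM fold of 0.987 with an interval from 0.974 to 1.001. The log2 ratio was above 0 in 5 and below 0 in 7, with a median of -0.07, and the exact binomial test found 2 higher, 5 lower and 5 neither. With the trend with transcript length removed, as described further on, 3 were above 0 and 9 below, with a median of -0.05. Eprs, which charges both glutamate and proline, had 5717 and 6972 reads, or 16.4 and 20.3 FPKM, and the highest log2 ratio, 0.29 (0.24 to 0.34). Iars, for isoleucine, was the other higher gene, with 3262 and 3696 reads and a log2 ratio of 0.19. Sars, for serine, had 5353 and 4277 reads, or 50.0 and 40.5 FPKM, and the lowest log2 ratio, -0.30 (-0.36 to -0.24). Eprs and Sars thus lay on opposite sides of 0 with intervals far apart. The other lower genes were Yars (tyrosine, -0.21), Gars (glycine, -0.16), Cars (cysteine, -0.13) and Nars (asparagine, -0.07). Aars, for alanine, had 6237 and 6235 reads, and Lars, for leucine, had 2696 and 2695. Mars had 2158 and 2036 reads, Tars 2234 and 2061, and Wars 832 and 914, and none of the 3 passed the exact test. Yars overlaps C77080 and Mars overlaps Ddit3, so part of their reads could belong to the neighbour.

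The promoters of these genes carried the motif through which ATF4 acts more often than promoters at large. The list was chosen by name and includes ATF4 targets, so this share is not independent of that choice. The C/EBP-ATF response element (CARE) was searched as TGATGNAA on both strands, in RefSeq promoters on GRCm38.p6 from 250 bases before to 50 bases after the start site. A promoter was found for 38 of the 45 members, all but Cars, Lars, Nars, Wars, Atf6, Hyou1 and Manf. CARE was present in 10 of the 38 (26.3%) and in 4.51% of the 27025 genes with a promoter. The matches upstream of a start site are printed with up to 20 bases on either side, the match in capitals, each on the strand of its gene, so that a match on the opposite strand reads as its reverse complement. In Trib3, Iars and Yars the match lay after the start site, and Aars had a further match there besides the one printed. The upstream matches are printed to show where the element stands in genes of different roles. Their likeness is set by the letters searched.
Asns (chr6:7693210-7693252, minus strand): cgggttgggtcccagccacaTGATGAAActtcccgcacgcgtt
Chac1 (chr2:119351029-119351076, plus strand): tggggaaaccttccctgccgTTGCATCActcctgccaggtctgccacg
Pycr1 (chr11:120643824-120643871, minus strand): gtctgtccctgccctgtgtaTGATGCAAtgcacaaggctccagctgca
Aars (chr8:111033710-111033757, plus strand): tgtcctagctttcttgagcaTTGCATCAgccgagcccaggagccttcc
Gars (chr6:55037951-55037998, plus strand): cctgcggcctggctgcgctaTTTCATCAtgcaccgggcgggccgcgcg
Tars (chr15:11399659-11399693, minus strand): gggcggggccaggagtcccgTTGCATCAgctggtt
Herpud1 (chr8:94386297-94386344, plus strand): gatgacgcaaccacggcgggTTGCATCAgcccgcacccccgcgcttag

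The 10 members with the element did not stand apart from the rest in their log2 ratio. Their median was -0.17, with 8 of 10 below 0, against a median of -0.19 and 21 of 28 below 0 in members whose promoter lacked it. A match is a run of letters and not a measured binding site.

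**Figure D2:**
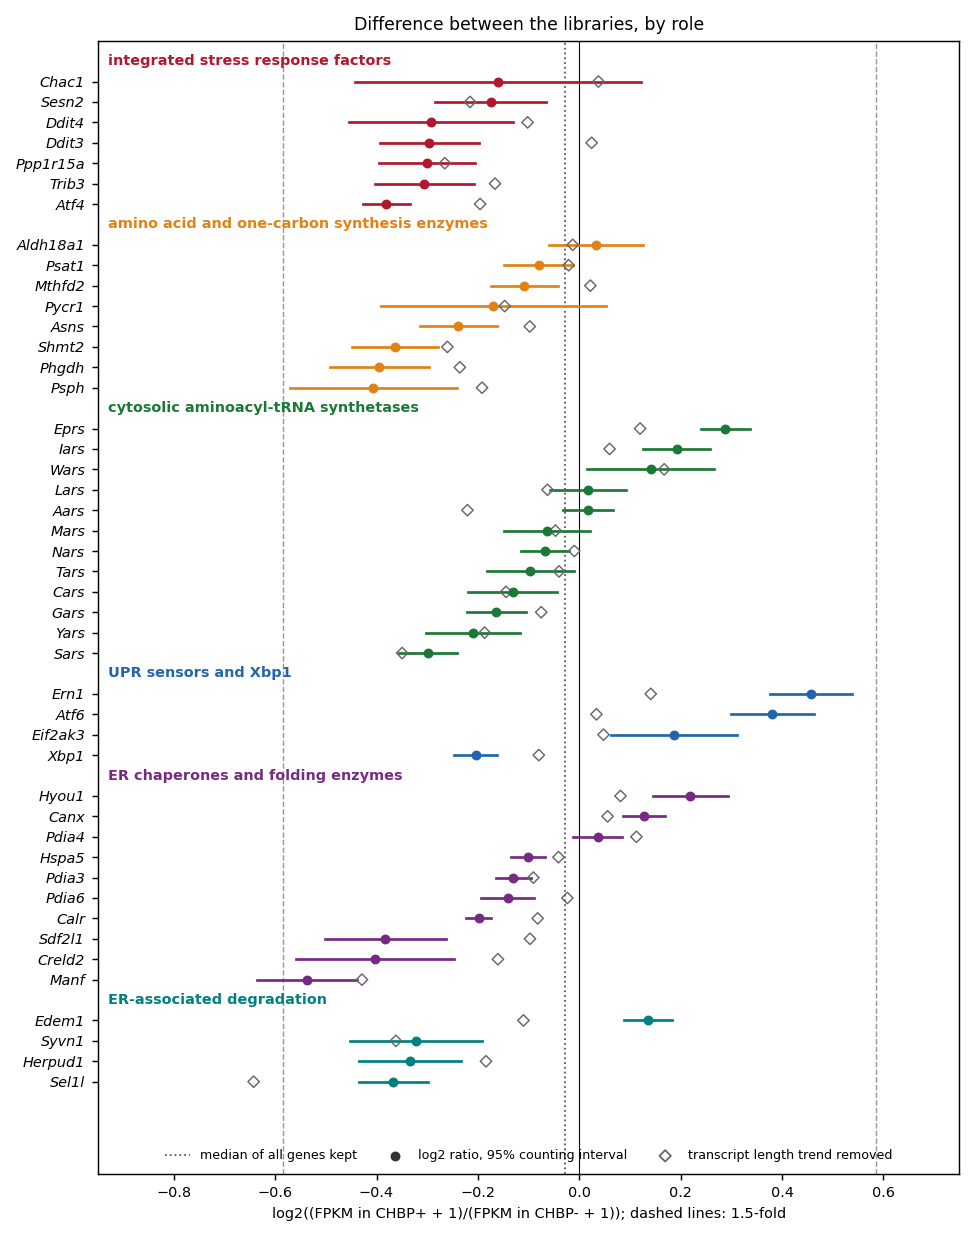
log2 ratio of FPKM, CHBP+ over CHBP-, for the 45 members in their role groups, with bars for the 95% interval of counting error, dashed lines at 1.5-fold, a dotted line at the median of all genes kept, and open diamonds for the value after removal of the transcript length trend. All filled points lie between the dashed lines, from -0.54 (Manf) to 0.46 (Ern1), and all 7 stress response factors lie below 0.

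Most ER chaperones and folding enzymes were slightly lower in CHBP+ M-MDSCs, and the lowest values were in Sdf2l1, Creld2 and Manf. Of the 10, 7 had a log2 ratio below 0 and all 7 were lower by the exact binomial test, 2 were higher and 1 did not pass, with a median of -0.14. The summed reads were 86202 and 78960, a CPM fold of 0.927 (0.919 to 0.936). Calr, which encodes the lectin chaperone calreticulin, was the most abundant member of all, with 29627 and 25486 reads, or 423 and 368 FPKM, and a log2 ratio of -0.20. Hspa5, which encodes BiP, the chaperone that holds the sensors inactive, had 14541 and 13388 reads, or 127 and 118 FPKM, and a log2 ratio of -0.10. Canx, the membrane-bound partner of calreticulin, went the other way, with 8946 and 9663 reads and a log2 ratio of 0.13. So did Hyou1, an exchange factor for BiP, with 2360 and 2745 reads, or 12.0 and 14.1 FPKM, and the highest log2 ratio of the group, 0.22.

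The disulfide isomerases of the group spanned 0. Pdia3 had 13942 and 12574 reads (log2 ratio -0.13), Pdia6 had 6071 and 5429 (-0.14), and Pdia4 had 6824 and 6912 (0.04, adjusted p = 0.237 by the exact test). Pdia3 overlaps Catsper2, which had 13 and 37 reads, so some of the Pdia3 reads are uncertain. The lowest values were in Sdf2l1, a stabiliser of BiP cofactors, with 1299 and 980 reads and a log2 ratio of -0.38, in Creld2, with 741 and 548 reads and -0.40, and in Manf, a secreted ER-stress protein. Manf had 1851 and 1235 reads, or 22.5 and 15.2 FPKM, and a log2 ratio of -0.54 (-0.64 to -0.44), the lowest of all members and the nearest to the 1.5-fold threshold. In CPM its fold was 0.676 (0.628 to 0.726). After removal of the trend with transcript length, as described further on, Sdf2l1 was at -0.10, Creld2 at -0.16 and Manf at -0.43. Pdia3 was then at -0.09, near Sdf2l1, and the median of the group was -0.06. The deposited gene model of Manf (chromosome 9, 106838312 to 106891979) overlaps Rbm15b, 4930524O07Rik and Vprbp, and Vprbp had 935 and 1084 reads, a difference in the other direction, so the Manf reads are uncertain.

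The members with the ER stress response element (ERSE), the composite site of ATF6 and XBP1, came mostly from this group. It was searched on both strands as CCAAT, 9 bases of any kind, then CCACG. It was present in 6 of the 38 member promoters (15.8%), against 0.137% of the 27025 genes. Since the list was chosen to hold ER stress genes, this share is not independent of that choice either. The UPR element TGACGTGG was in none of the 38 and in 0.714% of the genes. The 6 ERSE matches are shown with 20 bases on either side and the whole element, spacer included, in capitals, on the strand of the gene. They are printed because this element is the one through which ATF6 and XBP1 are known to act, and their outer letters are alike by the search itself.
Hspa5 (chr2:34772005-34772063, plus strand): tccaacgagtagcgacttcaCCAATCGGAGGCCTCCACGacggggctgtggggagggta
Calr (chr8:84847055-84847113, minus strand): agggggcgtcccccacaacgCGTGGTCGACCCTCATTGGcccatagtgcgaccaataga
Canx (chr11:50325780-50325838, minus strand): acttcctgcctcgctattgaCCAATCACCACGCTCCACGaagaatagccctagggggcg
Pdia6 (chr12:17266471-17266529, plus strand): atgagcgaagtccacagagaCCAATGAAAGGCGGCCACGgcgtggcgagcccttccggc
Creld2 (chr15:88819500-88819558, plus strand): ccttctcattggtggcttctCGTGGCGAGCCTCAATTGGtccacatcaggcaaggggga
Syvn1 (chr19:6046512-6046570, plus strand): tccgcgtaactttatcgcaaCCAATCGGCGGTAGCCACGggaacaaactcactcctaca

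In Calr and Creld2 the element lay on the opposite strand and reads as its reverse complement. The first base of the element was 65 bases before the start site in Hspa5 (-65) and 44 before it in Syvn1 (-44). The log2 ratios of the 6 genes ran from -0.40 (Creld2) to 0.13 (Canx), with a median of -0.17 and 5 of 6 below 0, against a median of -0.17 and 24 of 32 below 0 in the members without the element.

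The machinery of ER-associated degradation, which draws misfolded proteins out of the ER for the proteasome, was lower in 3 of its 4 members. Sel1l (chromosome 12, 91806043 to 91849157), the scaffold of the HRD1 ubiquitin ligase, had 3465 reads in CHBP- and 2596 in CHBP+, or 13.4 and 10.1 FPKM. Its log2 ratio was -0.37, the lowest of the group, and its CPM fold 0.759 (0.721 to 0.798), with adjusted p = 2.12e-25 by the exact binomial test. Syvn1, the ligase itself, had 653 and 480 reads, or 3.62 and 2.70 FPKM, and a log2 ratio of -0.32. It overlaps Mrpl49, which had 584 and 447 reads, also fewer in CHBP+. Herpud1, which recruits the ligase, had 1702 and 1319 reads, or 24.2 and 19.0 FPKM, and a log2 ratio of -0.33. Edem1, a lectin that hands over misfolded glycoproteins, was the exception, with 6600 and 7177 reads, or 34.3 and 37.8 FPKM, and a log2 ratio of 0.14. Because Edem1 gave more than 1 in every 2 reads of the group, the summed CPM fold, 0.943 (0.920 to 0.968), was nearer to 1 than the median log2 ratio of -0.33 would give.

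The order of the members by log2 ratio was close to their order by transcript length. Transcript length, that of the longest protein-coding transcript in GENCODE M1, was found for all 45 members and for 10211 of the genes kept. Spearman's rho of the log2 ratio with that length was 0.68 across the members and 0.69 across all of these genes. Genes are not replicates of a condition, and all points share the same 2 libraries. With a cubic trend in log10 length removed, a step chosen after seeing the data, 39 of the 45 members lay within 1 SD of all genes (0.25) around the trend. The share of all genes within the same distance was not counted. Ern1 went from 0.46 to 0.14, Atf6 from 0.38 to 0.03, and Eif2ak3 from 0.19 to 0.05. Atf4 went from -0.38 to -0.20, and Ddit3 from -0.30 to 0.02. The median of the stress response factors went from -0.30 to -0.17, and that of all members from -0.16 to -0.08, with 33 of 45 below 0. Over the 10211 genes, 5304 were below 0 on this scale, with a median of -0.01. What produced the relation with length was not tested.

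The 6 members beyond 1 SD of the trend were all below it. How all genes beyond that distance split between the sides was not counted. Sel1l was the farthest, at -0.64, past the size of 1.5-fold that no member reached without the correction. With a transcript of 6300 bases it lay among long-transcript genes that were mostly higher in CHBP+, yet had fewer reads there. The others were Manf (-0.43), Syvn1 (-0.36), Sars (-0.35), Ppp1r15a (-0.265) and Shmt2 (-0.26). For comparison, Edem1, with a transcript of 5858 bases, was at -0.11 after the correction. All 4 degradation genes lay below the trend, with a median of -0.27, the lowest of the 6 role groups on this scale. The 17 other degradation genes kept, described further on, had a median of -0.03 on it, with 7 above 0 and 10 below.

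**Figure D3:**
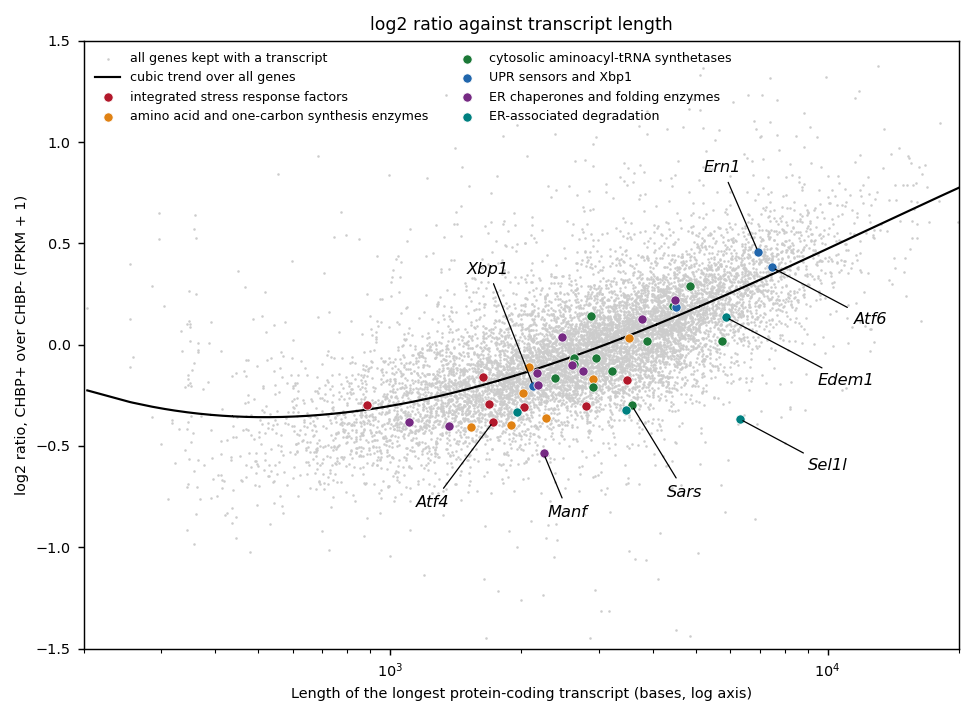
log2 ratio of FPKM, CHBP+ over CHBP-, against the length of the longest transcript in bases (log axis), for all genes kept with a transcript (grey) and the 45 members coloured by role, with the cubic trend over all genes as a line. Ern1 and Atf6 lie at the long end near the line, and Sel1l lies far below it, while 34 genes fall outside the range drawn.

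Of 136 other genes of the same pathways, in 9 lists, 131 passed the minimum of 1 FPKM, with 48 above 0, 83 below 0 and a median log2 ratio of -0.07. At 1.5-fold, 1 was higher (Atf5) and 2 were lower (Pycrl and Sec61g), where 3.42% and 2.89% of all genes kept were. By the exact binomial test 26 were higher, 49 lower and 60 neither, and 1 had too few reads to be tested, against 21.9% higher and 22.2% lower over all genes tested.

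In the integrated stress response, 21 further genes had a median of -0.15, with 5 higher and 8 lower by the exact test. Atf5, which encodes a factor that, like ATF4, is translated when eIF2α is phosphorylated, had 716 reads in CHBP- and 1496 in CHBP+, or 13.6 and 28.7 FPKM. Its log2 ratio was 1.03, opposite to every factor among the members, with adjusted p = 1.91e-63 by the exact test. It overlaps Il4i1, which had 3079 and 2800 reads, so the source of its reads is uncertain. Cebpb, a partner of ATF4 on CARE sites, had 1518 and 1001 reads, or 61.2 and 40.9 FPKM, and the lowest log2 ratio of the list, -0.57. Its reads are uncertain as well, since it overlaps Tmem189, which had 2780 and 2449 reads, also fewer in CHBP+. Of 9 amino acid transporters under ATF4, 8 were kept, 3 were higher and 2 lower by the exact test. Slc7a11, the cystine importer, had 7083 and 10320 reads, or 27.4 and 40.4 FPKM, and a log2 ratio of 0.54, which was 0.11 after the correction for its transcript of 9227 bases. Slc1a5, a glutamine importer, had 2598 and 2094 reads and a log2 ratio of -0.28.

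Of 15 other amino acid and one-carbon enzymes, 13 were kept, with a median of -0.12, and 1 was higher and 4 lower by the exact test. Pycrl, a cytosolic enzyme of proline synthesis, had 317 and 193 reads, or 14.2 and 8.76 FPKM, and a log2 ratio of -0.64. The 11 remaining cytosolic synthetases and scaffold proteins were all below 0, with a median of -0.17, and 7 were lower by the exact test and none higher, from Aimp2 (281 and 206 reads, -0.36), which overlaps Eif2ak1, to Dars (3064 and 2946 reads, -0.04). With the transcript length trend removed, 5 of the 11 were above 0 and 6 below, with a median of -0.02.

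**Figure D4:**
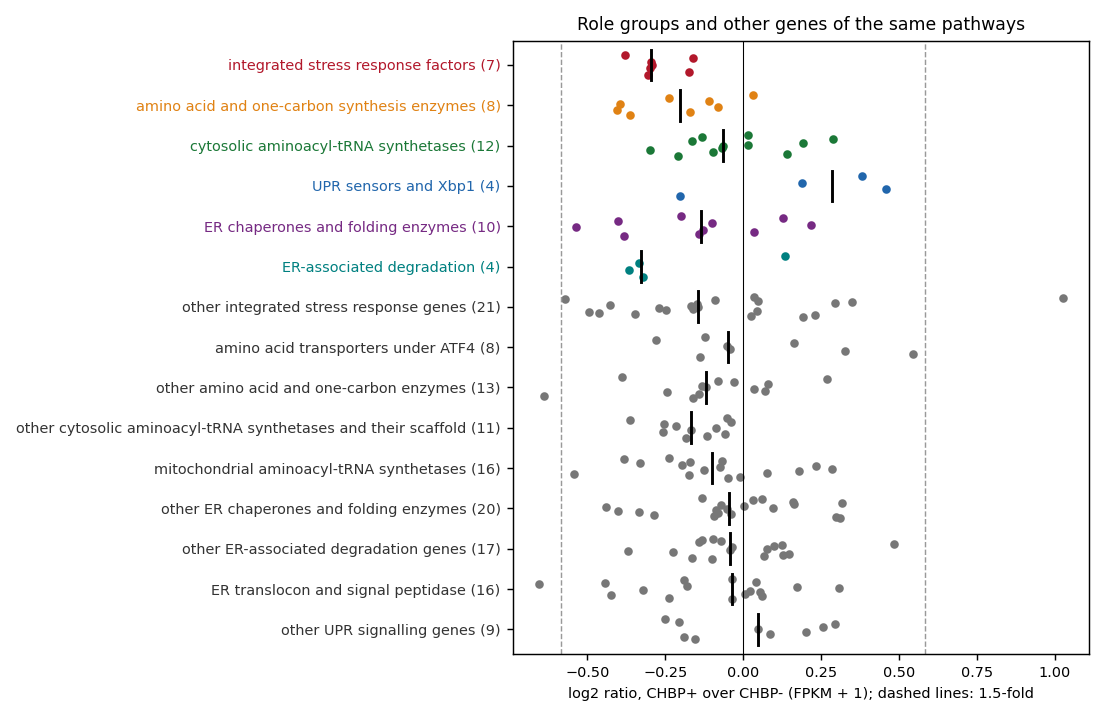
log2 ratio of FPKM, CHBP+ over CHBP-, for the 6 role groups of members and the 9 lists of other pathway genes (1 point a gene, with the median of each list as a bar), and dashed lines at 1.5-fold. The medians lie between -0.33 (ER-associated degradation) and 0.28 (UPR sensors and Xbp1), and Atf5, Pycrl and Sec61g are the genes beyond the dashed lines.

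Inside the ER, the other chaperones and degradation genes were centred near 0. The 20 other chaperones and folding enzymes had a median of -0.05, with 6 higher and 7 lower by the exact test, and ran from Fkbp2, a prolyl isomerase (763 and 551 reads, -0.44), to Ero1l, the oxidase that recharges the disulfide isomerases (11796 and 14542 reads, 0.32). The 18 other degradation genes, of which 17 were kept, had a median of -0.04, with 3 higher and 6 lower, and ran from Selk (1395 and 1060 reads, -0.37) to Edem3, a relative of Edem1 (974 and 1401 reads, 0.48). In the 9 other UPR signalling genes the median was 0.05, with 3 higher and 3 lower by the exact test. Atf6b, the close relative of Atf6, had 1345 and 1107 reads and a log2 ratio of -0.25, the lowest of that list and opposite to Atf6. Creb3l2, an ER-bound factor cut like ATF6, had 410 and 525 reads and the highest, 0.30.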

How the data were processed

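RNA from sorted M-MDSCs was sequenced, with 1 library per condition, grouped by treatment label. The authors deposited, per gene, the raw read count and the FPKM, which is that count per kilobase of a gene length and per 1000000 reads of the library total. The authors' methods name TopHat2, HT-seq, mm9 and DESeq, whereas the submitters' processing notes name HISAT2 2.0.4, Cufflinks 2.1.1, Cuffdiff and mm10. Handling of strand and multi-mapping is not given in the sources used here, so overlapping genes are uncertain. A negative binomial model was not fitted, for want of replicates. The members, the gene lists, the fold threshold and the alternatives were all chosen with earlier results of these data known.

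Every member is accounted for. Values are given in full for the stress response factors, the sensors and the extremes of each group, and from each pathway list for the extremes and the genes past 1.5-fold. The value of 1 such gene is not reported here. Other genes were named after their values were seen. Transcript lengths came from GENCODE M1 by identifier, and promoters from RefSeq (Mars under its current symbol). Protein sequences were not used here. The alternatives tried were at least 5 FPKM or no filter, a pseudocount of 0.1, median centring, TMM (edgeR 4.0.16), DESeq2 1.42.0 size factors, CPM, a fold of 2, the read test as an added criterion, removal of length trends and omission of overlapping genes. The read test was tested on simulated data. Python 3.11.15, numpy 2.4.6, pandas 2.3.3, scipy 1.17.1, matplotlib 3.10.9 and R 4.3.3 were used.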

Additional observations from a re-analysis of the deposited data

How the results depend on the processing

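With 1 library per condition, no replicate could be left out, and what separates the libraries besides CHBP cannot be told apart from it. No paired analysis was possible because each condition has 1 library. Under the other pseudocount, filters, scalings and fold, and without overlapping genes, no count or median of the members moved by more than its limit. Part of this was fixed in advance. With 0 members at 1.5-fold, a larger fold, an added read test or fewer genes could only give 0 again. Without the filter the same 45 members were used. Removing the trend with gene length gave 1 member at least 1.5-fold lower (Sel1l) and a stress response factor median of -0.15. Among members that had passed the exact test, Eprs (-0.022), Nars (0.062) and Edem1 (-0.026) changed sign beyond their interval. Of those that had not passed, Aars (-0.17) and Tars (0.032) did so too. Removing the trend with transcript length, chosen after seeing the data, also gave 1 member lower (Sel1l). It gave medians of -0.17 for the stress response factors, 0.041 for the UPR sensors and Xbp1 and -0.062 for the ER chaperones. Ddit3 (0.024), Mthfd2 (0.022) and Edem1 (-0.11), which had passed the exact test, changed sign beyond their interval. So did Aars (-0.22) and Lars (-0.063), which had not passed. Besides the sign changes in genes that had passed, 21 members without the gene length trend and 29 without the transcript length trend left their interval. Only 21 and 13 of the 45 stayed within it. The cause of the trends was not tested. Over all genes kept, 374 were at least 1.5-fold higher and 316 lower. These counts were 665 and 571 with a pseudocount of 0.1, 218 and 209 at a minimum of 5 FPKM, 609 and 395 in CPM, 85 and 46 at a fold of 2, 434 and 264 with the median set to 0, 312 and 168 without the gene length trend, and 195 and 98 without the transcript length trend.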

Other observations

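Outside the cytosol and the folding machinery, the mitochondrial synthetases and the ER entry channel were read at similar depth in both libraries. Of 17 mitochondrial aminoacyl-tRNA synthetases, 16 passed the minimum of 1 FPKM, 4 with a log2 ratio above 0 and 12 below, with a median of -0.10. By the exact binomial test of reads, 2 were higher in CHBP+, 5 lower and 10 neither. They ran from Sars2, for mitochondrial serine (94 and 54 reads, -0.54), to Mars2, for mitochondrial methionine (323 and 429 reads, 0.29). Sars2 was thus lower, as was its cytosolic counterpart Sars.

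In the ER translocon and signal peptidase, through which secreted proteins enter the ER, all 16 genes were kept, with a median of -0.04, and 3 were higher and 7 lower by the exact test. Sec61g, the smallest subunit of the channel, had 518 and 301 reads, or 7.75 and 4.56 FPKM, and a log2 ratio of -0.65. Spcs1, a signal peptidase subunit, had 1041 and 1291 reads and a log2 ratio of 0.31, and it overlaps Glt8d1.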
